A study of Mus musculus with 167 samples.

Results

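The transcripts of the EGF receptor family, its ligands and the HGF receptor Met were followed in mouse liver during phenobarbital treatment. The set holds 10 genes: the receptors Egfr, Erbb2, Erbb3 and Met, the ligands Egf, Tgfa, Areg and Hbegf, and the receptor inhibitors Lrig1 and Errfi1. All probe sets that the platform annotation gives to 1 of these symbols were taken, which gave 23 of the 45037 non-control probe sets on the array and 9 of the 10 genes. No probe set used here carried the symbol Areg, so amphiregulin, an EGF receptor ligand, was not analysed here. Each probe set is shown on its own, because the 7 probe sets of Egfr did not behave alike.

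EGF receptor, ERBB2 and ERBB3 are membrane tyrosine kinases or their partners that pair with each other after a ligand such as EGF, TGF-alpha or HB-EGF binds, and they pass the signal on through RAS and ERK and through PI3K and AKT. Hepatocytes carry much EGF receptor, and together with MET, the receptor for hepatocyte growth factor, it drives their growth after loss of liver tissue. LRIG1 and ERRFI1 (also called MIG6) hold the receptors back, the former at the membrane and the latter by binding the kinase inside the cell. Phenobarbital is known to bind the EGF receptor and block its signal, which lets the nuclear receptor CAR enter the nucleus.

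Livers came from male C57BL/6 mice, with 1 Affymetrix array per animal. The labels give an age of 9 to 11 weeks. Sampling ran from day 1 to day 119, so this cannot be the age of every liver at sampling. Wild-type mice were compared with mice lacking both nuclear receptors CAR and PXR (CAR/PXR knockout) and with mice labelled as humanized for both. In each genotype 1 arm received phenobarbital in the drinking water, at 0.05% (wt/vol) per the protocol text, and the control arm did not. Sampling followed 1, 7, 14, 28 or 91 days of dosing, or, on day 119, 4 further weeks without the drug. Of 167 arrays, 166 samples entered the fit, with 3 to 5 animals in each of 36 groups. Wild-type mice numbered 27 without and 29 with the drug, knockouts 27 and 28, and humanized mice 29 and 26. The promoter that drives the human receptors, and how many founder animals or clones stand behind each altered line, were not stated in these sources.

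The mouse receptor genes were low in both altered lines. Nr1i3, the gene of CAR, lay between 7.74 and 8.91 on the log2 scale in wild-type livers, against 4.67 to 5.38 in the knockout and 4.80 to 5.46 in humanized livers. Nr1i2, the gene of PXR, lay between 6.91 and 8.02, 3.33 and 4.01, and 3.34 and 4.19 in the same order. These values set wild-type livers apart but do not tell humanized from knockout livers, so the humanized label was not checked. The mean log2 level of 8 hepatocyte markers lay between 13.66 and 13.99 in all arms. Treated knockout animals 4019 (day 28) and 4024 (day 91) gave nearly identical arrays under different labels (SD of the log2 difference 0.0573, against at least 0.122 in any other pair bar the one that was averaged). Without these animals 7 members were still called in the knockout mean over the dosing days, while the count called on at least 1 dosing day, all of them on day 91, went from 2 to 1. Whole liver was measured, so that fewer cells of a type and less RNA per cell cannot be told apart.

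Phenobarbital lowered Egfr probe sets 1435888_at, 1424932_at, 1460420_a_at and 1451530_at and both Errfi1 probe sets in all 3 genotypes. The other Egfr probe sets were not called lower. Lrig1 changed in wild-type and humanized mice and Met in wild-type mice, and Erbb2, Erbb3, Tgfa and Hbegf had no call. Of the 23 probe sets, 20 passed the filter on dim probe sets and were tested. In the mean over the 5 dosing days, 10 of the 20 were called at an adjusted p under 0.05 (limma, Benjamini-Hochberg over all tested probe sets) in wild-type mice, beside 27.0% of all probe sets. Of these, 9 were lower and 1 higher, beside 16.6% and 10.4% of all. In the knockout 7 were called, 6 lower and 1 higher (Egfr 1454313_at), beside 18.0% of all (10.6% lower, 7.37% higher). In humanized mice 8 were called, all of them lower, beside 30.3% of all (17.7% lower, 12.6% higher). The median difference of the members was −0.09, −0.08 and −0.11 in wild-type, knockout and humanized mice, and that of all tested probe sets −0.01, 0.00 and −0.01. Several called probe sets belong to the same gene, so they are not separate observations.

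**Figure D1:**
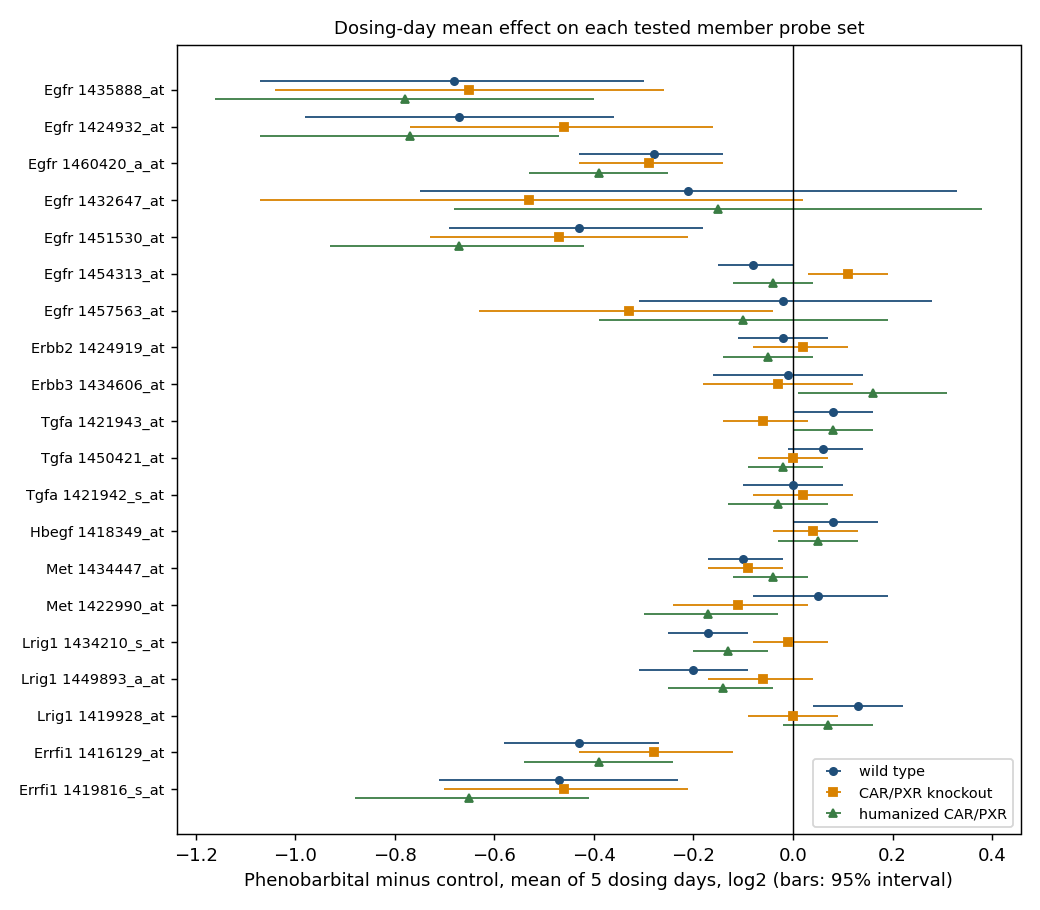
Phenobarbital minus control on the log2 scale, averaged over 5 dosing days, for the 20 tested probe sets, with 1 symbol per genotype and bars for the 95% interval from limma. Of Egfr, 1435888_at, 1424932_at, 1451530_at and 1460420_a_at lie below 0 with their intervals in all 3 genotypes, as do both Errfi1 probe sets, while Erbb2, Tgfa and Hbegf lie near 0.

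Egfr, the gene of the EGF receptor itself, lies on chromosome 11 (GRCm38.p6, chr11:16752203-16913907, plus strand). Its 250 bases upstream of the start, from RefSeq, are shown because Egfr is the receptor with probe sets called lower in every genotype (chr11:16751953-16752202, plus strand, 5′ to 3′, with a GC box match in capitals).
Egfr: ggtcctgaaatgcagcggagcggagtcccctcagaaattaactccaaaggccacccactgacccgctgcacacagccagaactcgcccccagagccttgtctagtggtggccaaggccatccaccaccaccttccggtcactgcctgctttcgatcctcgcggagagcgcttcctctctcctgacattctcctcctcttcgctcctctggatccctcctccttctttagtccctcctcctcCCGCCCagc
The window has a GC content of 60.8%, against a median of 52.4% over 32536 mouse windows of the same length. It holds 1 match to the GC box GGGCGG, read here on the opposite strand, which 33% of all windows hold. On either strand no match was found to the TATA box TATAAA, the cyclic AMP response element TGACGTCA, the AP-1 site TGACTCA, the direct repeat DR4 (both copies exact) or the palindromic glucocorticoid response element, which 12.3%, 1.56%, 4.45%, 0.0154% and 0.00922% of all windows hold.

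Egfr transcript varied widely from liver to liver. Probe set 1435888_at, which has the highest mean of the Egfr probe sets and stands for the gene where 1 is needed, ran from 9.03 to 12.62 over the 166 samples with a median of 11.18, a 12.1-fold range on the linear scale. Its SD within groups was 0.664, larger than that of 99.4% of tested probe sets. In the wild type, control livers of the dosing days had a lowest value of 10.01, a median of 11.71 and a highest of 12.62 (n = 22), and treated livers 9.18, 11.08 and 12.31 (n = 24). Knockout controls had 10.07, 11.38 and 12.30 (n = 22), and treated knockout livers 9.13, 10.56 and 12.43 (n = 24). Humanized controls had 10.15, 11.70 and 12.36 (n = 24), and treated humanized livers 9.03, 10.88 and 11.87 (n = 23). In each genotype the treated livers reached lower than any control, and the arms overlapped over most of their range.

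The dosing-day mean of 1435888_at fell in all 3 genotypes. In wild-type mice it was 10.97 with phenobarbital and 11.65 without, a log2 difference of −0.68 ± 0.194 (SE; limma adjusted p = 0.00424), or a level 37.7% lower. In the knockout it was 10.61 against 11.26, a difference of −0.65 ± 0.196 (limma adjusted p = 0.0118), or 36.2% lower. In humanized mice it was 10.66 against 11.44, a difference of −0.78 ± 0.192 (limma adjusted p = 0.000684), or 41.8% lower. From high to low, the 6 arm means ran wild-type, humanized and knockout controls and then treated wild-type, humanized and knockout livers. Each step between neighbours in this order was smaller than the SD within groups.

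The size of the fall of Egfr 1435888_at did not differ detectably between genotypes. The knockout effect minus the wild-type effect on 1435888_at was 0.03 ± 0.276 (95% interval −0.51 to 0.58; limma adjusted p = 0.966). The humanized effect minus the wild-type effect was −0.10 (−0.64 to 0.44; limma adjusted p = 0.927), and the humanized minus the knockout effect −0.13 (−0.67 to 0.41; limma adjusted p = 0.855). These intervals leave room for differences nearly as large as the effect itself. The knockout call rests on few animals and days: without control animal 3009 it was −0.54 (limma adjusted p = 0.0518), without day 14 −0.52 (0.0949) and without day 91 −0.46 (0.167). The wild-type call was lost without day 1, at −0.56 (limma adjusted p = 0.0537).

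**Figure D2:**
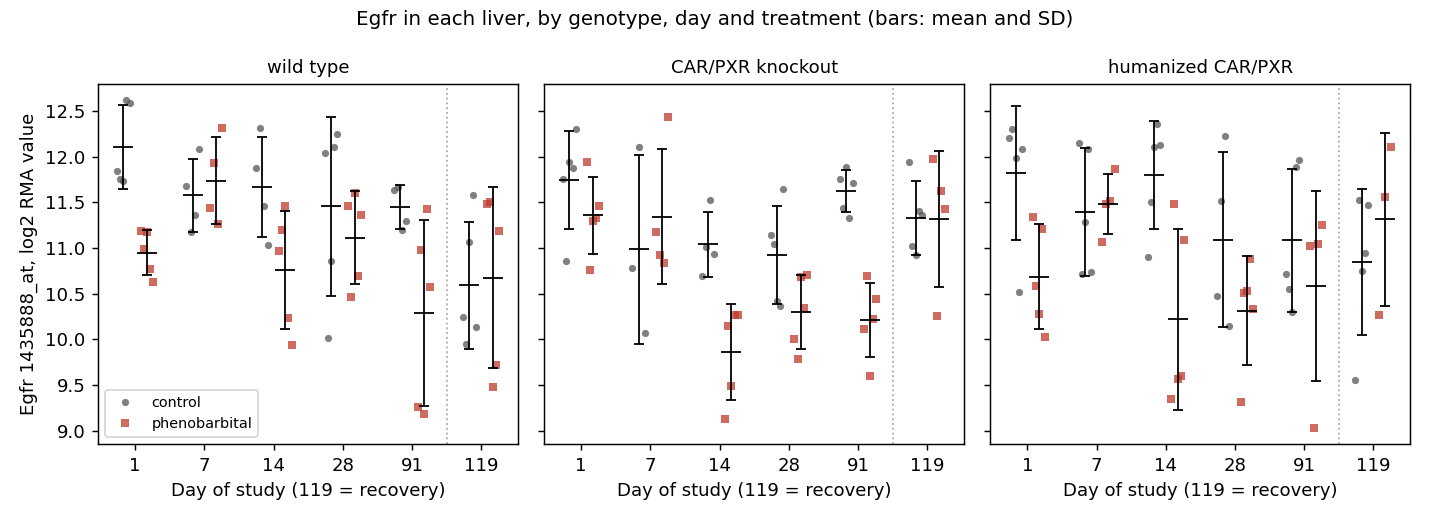
Log2 value of Egfr probe set 1435888_at in each liver, by day (119 is the recovery day) and treatment in the 3 genotypes, with the mean and SD of each group in black. Treated livers lie below every control on wild-type day 1 and knockout days 14 and 91, and the arms overlap on day 7 and on day 119. The share of all probe sets whose arms part like this was not counted.

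Day by day, the wild-type livers showed low Egfr on days 1, 14 and 91 of treatment. On day 1 the controls had 11.73, 11.75, 11.84, 12.59 and 12.62, and the treated livers 10.63, 10.77, 10.99, 11.17 and 11.19. On day 7 the controls had 11.18, 11.36, 11.68 and 12.08, and the treated livers 11.26, 11.44, 11.93 and 12.31. On day 14 the controls had 11.03, 11.46, 11.88 and 12.31, and the treated livers 9.94, 10.23, 10.97, 11.20 and 11.46. All treated livers lay below all controls on day 1, none did so on day 7, and on day 14 the arms overlapped. Here and in the day-by-day values below, the share of all probe sets whose arms part like this was not counted. On day 28 the controls had 10.01, 10.86, 12.04, 12.11 and 12.25, and the treated livers 10.46, 10.69, 11.36, 11.46 and 11.60. On day 91 the controls had 11.20, 11.29, 11.63 and 11.67, and the treated livers 9.18, 9.26, 10.57, 10.98 and 11.43. On day 119 the controls had 9.95, 10.13, 10.24, 11.06 and 11.58, and the treated livers 9.48, 9.72, 11.19, 11.48 and 11.50. The arms overlapped on these 3 days, and on day 91 only 1 treated liver was as high as a control. The log2 difference on day 1 was −1.16 (limma adjusted p = 0.0587) and that on day 91 −1.16 (0.186), neither of which passed the test.

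In knockout mice the Egfr arms were apart on days 14 and 91, and treated livers of day 28 were about as low as those of day 91. The treated groups of days 28 and 91 hold the nearly identical arrays of animals 4019 and 4024. On day 1 the controls had 10.86, 11.75, 11.88, 11.94 and 12.30, and the treated livers 10.76, 11.30, 11.33, 11.46 and 11.94. On day 7 the controls had 10.07, 10.78 and 12.11, and the treated livers 10.84, 10.92, 11.17 and 12.43. On day 14 the controls had 10.69, 10.93, 11.01 and 11.53, and the treated livers 9.13, 9.49, 10.15, 10.27 and 10.27. The arms overlapped on days 1 and 7 and were apart on day 14. On day 28 the controls had 10.36, 10.42, 11.04, 11.14 and 11.65, and the 5 treated livers ran from 9.78 to 10.70 with a median of 10.34. On day 91 the controls had 11.33, 11.44, 11.71, 11.76 and 11.89, and the treated livers 9.60, 10.11, 10.22, 10.44 and 10.69. On day 119 the controls had 10.92, 11.02, 11.36, 11.40 and 11.94, and the treated livers 10.25, 11.43, 11.62 and 11.97. The arms overlapped on days 28 and 119 and were apart on day 91. The day 91 difference of −1.41 ± 0.414 passed the test (limma adjusted p = 0.0467). It no longer did so without any 1 of animals 3021, 3023, 3025, 4021, 4023 and 4024 (−1.26 to −1.42, limma adjusted p 0.0743 to 0.164), and the −1.18 of day 14 did not pass (limma adjusted p = 0.206).

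In humanized mice day 14 stood out. On day 1 the controls had 10.52, 11.99, 12.08, 12.20 and 12.30, and the treated livers 10.02, 10.28, 10.58, 11.21 and 11.34. On day 7 the controls had 10.71, 10.74, 11.28, 12.08 and 12.15, and the treated livers 11.06, 11.48, 11.51 and 11.87. On day 14 the controls had 10.90, 11.50, 12.11, 12.13 and 12.36, and the treated livers 9.35, 9.57, 9.60, 11.09 and 11.48. A single low control, animal 5004, made the arms overlap on day 1, and on day 14 treated livers reached into the control range. On day 28 the controls had 10.15, 10.47, 11.51 and 12.23, and the treated livers 9.31, 10.33, 10.51, 10.53 and 10.88. On day 91 the controls had 10.30, 10.55, 10.71, 11.89 and 11.96, and the treated livers 9.03, 11.02, 11.04 and 11.25. On day 119 the controls had 9.55, 10.75, 10.94, 11.47 and 11.52, and the treated livers 10.27, 11.56 and 12.11. The arms overlapped on all 6 days. The day 14 difference of −1.58 ± 0.414 passed the test (limma adjusted p = 0.0058), but not in a fit of the compared groups alone (limma adjusted p = 0.0663). The day 1 difference was −1.13 (limma adjusted p = 0.0619).

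Of the other Egfr probe sets, 3 were also called lower in all 3 genotypes. Probe set 1424932_at fell by 0.67 ± 0.155, 0.46 ± 0.156 and 0.77 ± 0.153 on the log2 scale in wild-type, knockout and humanized mice (limma adjusted p = 0.000363, 0.026 and 2.3e-05). Its wild-type arms ran from 9.01 to 11.45 in controls and from 8.13 to 10.94 in treated livers, and so overlapped. Probe set 1451530_at fell by 0.43 ± 0.129, 0.47 ± 0.13 and 0.67 ± 0.128 (limma adjusted p = 0.00683, 0.00578 and 9.61e-06). Both probe sets come from 1 design record of the array. Probe set 1460420_a_at fell by 0.28 ± 0.0731, 0.29 ± 0.0736 and 0.39 ± 0.0723 (limma adjusted p = 0.00164, 0.00267 and 5.76e-06). The knockout call of 1424932_at was lost without animal 3009 (−0.38, limma adjusted p = 0.0889) or 4008 (−0.42, 0.0518). Without day 14 or day 91 the knockout mean of 1451530_at was −0.35 or −0.38, neither of which passed (limma adjusted p = 0.0916 and 0.0744).

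Single days added calls for these probe sets. On wild-type day 1, 1424932_at had 10.39, 10.45, 10.73, 11.26 and 11.45 in controls and 9.30, 9.70, 9.78, 10.09 and 10.19 in treated livers, with no overlap. Its difference was −1.05 ± 0.331 (limma adjusted p = 0.0269), and that of 1451530_at −0.84 ± 0.276 (0.0349). Without any 1 of animals 1004, 1005, 2002, 2004 and 2005 neither call held. In humanized mice on day 14 the difference was −1.46 ± 0.331 for 1424932_at (limma adjusted p = 0.000989), −1.11 ± 0.276 for 1451530_at (0.00333) and −0.50 ± 0.156 for 1460420_a_at (0.024). On humanized day 1 it was −0.98 for 1424932_at and −0.82 for 1451530_at (limma adjusted p = 0.0398 and 0.0381). Each of these day 1 calls was lost when 1 of several animals was left out.

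None of the remaining Egfr probe sets was called lower in a dosing-day mean. Probe set 1454313_at differed by −0.08 and −0.04 in wild-type and humanized mice (limma adjusted p = 0.148 and 0.498) and rose by 0.11 ± 0.0397 in the knockout (limma adjusted p = 0.0417). That rise was lost without any 1 of 19 animals, and without day 91 it was 0.05 (limma adjusted p = 0.501). Probe set 1432647_at, of the same design record, differed by −0.21, −0.53 and −0.15 (limma adjusted p = 0.624, 0.178 and 0.719), so that its knockout value was as large as called falls of other Egfr probe sets. It varied most of all from liver to liver, from 5.86 to 10.06, an 18.4-fold range with an SD within groups of 0.931. Probe set 1457563_at lay above its array's median on 15 arrays and differed by −0.02, −0.33 and −0.10 (limma adjusted p = 0.956, 0.104 and 0.654).

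Whether the effect on each other Egfr probe set differed from that on 1435888_at was tested by permuting treatment within days (two-sided, 100000 resamples, 18 tests adjusted by Benjamini-Hochberg). The effect on 1454313_at exceeded that on 1435888_at by 0.61, 0.76 and 0.74 in wild-type, knockout and humanized mice (permutation adjusted p = 0.0233, 0.00738 and 0.0222). Probe set 1454313_at is dim, with values of 5.09 to 5.98 where array medians were 5.14 to 5.23, so that this gap is mostly the fall of 1435888_at itself. The wild-type value was no longer called without animal 2008 or 2017 (0.57 in both cases, permutation adjusted p = 0.0504 and 0.051). For 1451530_at the gap was 0.25 in wild-type mice (permutation adjusted p = 0.0405), and 0.18 and 0.11 in the other genotypes (0.0874 and 0.467). For 1424932_at it was 0.18 in the knockout (permutation adjusted p = 0.0457) and 0.01 in the others (0.897 and 0.904). The gap of 1460420_a_at, at 0.40, 0.36 and 0.39, did not pass (permutation adjusted p = 0.0626, 0.102 and 0.125). Nor did that of 1432647_at, at 0.47, 0.12 and 0.63 (permutation adjusted p = 0.338, 0.855 and 0.225), or that of 1457563_at, at 0.67, 0.31 and 0.68 (0.0626, 0.351 and 0.0626). The gaps of 1451530_at and 1424932_at just named were lost when some single animals were left out.

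**Figure D3:**
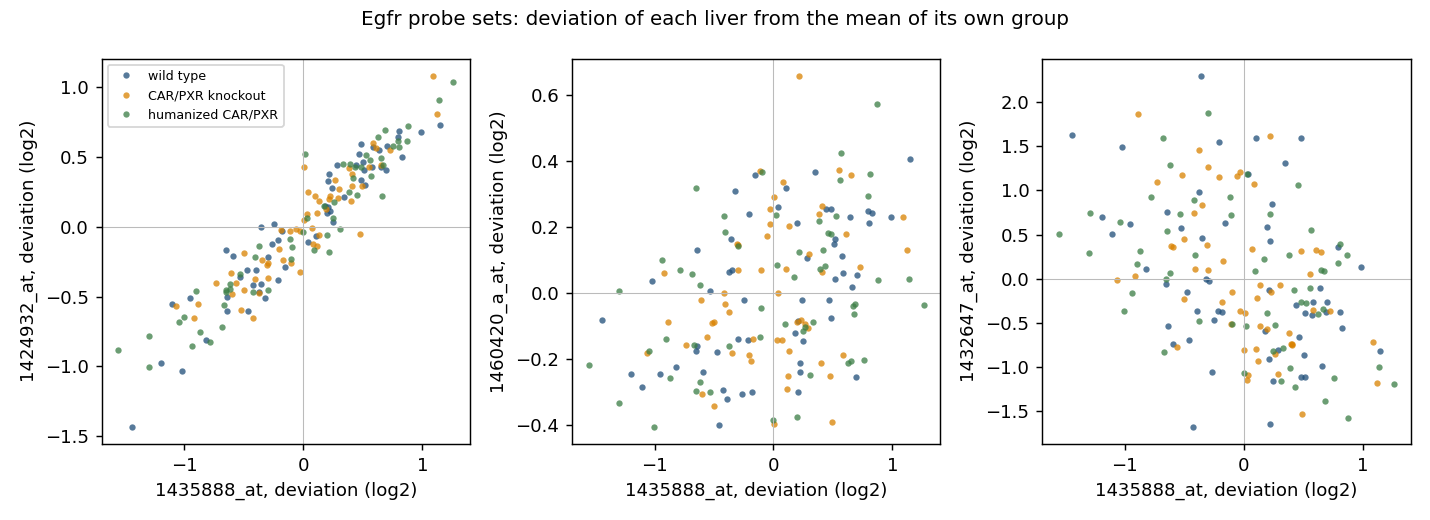
Deviation of each liver from its own group's mean (log2), for Egfr probe set 1435888_at on the horizontal axis against 1424932_at, 1460420_a_at and 1432647_at on the vertical axes, coloured by genotype. The first pair lies along a line (r = 0.95), the second scatters (r = 0.38) and the third slopes down (r = −0.41).

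The Egfr probe sets also differed in how single livers deviated from their group. Over the 166 samples, deviations from the group means of 1435888_at correlated at r = 0.95 with 1424932_at and at r = 0.89 with 1451530_at. With 1460420_a_at r was 0.38 and with 1454313_at 0.08. Deviations of 1432647_at and 1457563_at correlated with each other at r = 0.88, and 1432647_at correlated at −0.41 with 1435888_at and at −0.49 with 1424932_at. These values describe livers that share arrays and a normalisation, and carry no test. Which transcript or part of the gene each probe set reads was not analysed here.

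Probe set 1460420_a_at also moved with the day in controls. The wild-type control means were 10.21, 9.90, 9.89, 9.95, 9.35 and 9.31 from day 1 to day 119. In knockout controls they were 10.01, 9.74, 9.65, 9.48, 9.44 and 9.47, and in humanized controls 9.76, 9.72, 9.67, 9.63, 9.40 and 9.12. The means of days 91 and 119 were below those of day 1 in each genotype, and this trend with day was not tested.

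Erbb2 and Erbb3, the receptors that pair with EGF receptor, were not called. Erbb2 (chr11:98412484-98437716) has no known ligand of its own and was read by 1424919_at, which ran from 4.67 to 5.53 over all samples with a median of 5.20. Its dosing-day difference was −0.02, 0.02 and −0.05 in wild-type, knockout and humanized mice. Erbb3 (chr10:128567523-128589635), which binds neuregulins and has a weak kinase, was read by 1434606_at at 9.23 to 10.81 with a median of 10.13. Treated livers had medians of 10.13, 10.09 and 10.29 and controls 10.11, 10.21 and 10.09, and the arms overlapped throughout. Its difference was −0.01, −0.03 and 0.16, the last with a limma adjusted p of 0.0975. The other Erbb3 probe set, 1452482_at, lay above no array's median and was not tested, with differences of 0.05, 0.03 and 0.02.

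Met (chr6:17463349-17573980), the receptor of hepatocyte growth factor, shifted little. Probe set 1434447_at ran from 9.68 to 10.44 over all samples with a median of 10.09. Wild-type controls of the dosing days ran from 9.93 to 10.44 with a median of 10.11, and treated livers from 9.68 to 10.33 with a median of 10.06, and so overlapped. The wild-type difference was −0.10 ± 0.0375 (limma adjusted p = 0.0393), and it was lost without any 1 of 16 animals (limma adjusted p 0.0501 to 0.0873) and without day 1 (−0.03, 0.639). On wild-type day 1 the controls lay between 10.18 and 10.37 and the treated livers between 9.68 and 10.25, so that the arms overlapped. The day 1 difference was −0.36 ± 0.0799 (limma adjusted p = 0.000847), and in a fit of the compared groups alone it did not pass (limma adjusted p = 0.0745). In the knockout and in humanized mice the dosing-day difference was −0.09 and −0.04 (limma adjusted p = 0.0665 and 0.386). The weaker probe set 1422990_at, from 4.52 to 6.23, differed by 0.05, −0.11 and −0.17, the last with a limma adjusted p of 0.0504.

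None of the ligands was called. Tgfa (chr6:86195038-86275744), which encodes TGF-alpha, a ligand that hepatocytes make for their own EGF receptor, was read by 3 probe sets of 1 design record. Probe set 1421943_at ran from 7.63 to 8.65 over all samples with a median of 8.09. Treated livers had medians of 8.15, 7.99 and 8.23 in wild-type, knockout and humanized mice and controls 8.10, 8.06 and 8.12, and the arms overlapped. Its differences were 0.08, −0.06 and 0.08 (limma adjusted p = 0.147, 0.371 and 0.13). Probe set 1450421_at differed by 0.06, 0.00 and −0.02, and 1421942_s_at, above its array's median on 3 arrays only, by 0.00, 0.02 and −0.03. Hbegf, the gene of heparin-binding EGF, was read by 1418349_at at 5.76 to 6.73 with a median of 6.12. Its differences were 0.08, 0.04 and 0.05. The other Hbegf probe set, 1418350_at, reached its array's median on 2 arrays and was not tested. Egf (chr3:129677574-129755322), the founding ligand, was read by 1418093_a_at at 3.38 to 4.60, above no array's median, and was not tested.

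Errfi1, the feedback inhibitor of the EGF receptor kinase, fell in all 3 genotypes. The gene lies on chromosome 4 (chr4:150853796-150868889, plus strand). The 250 bases before the second of its 2 starts in RefSeq (GRCm38.p6) are printed because it and Egfr were the members with probe sets called lower in every genotype (chr4:150854820-150855069, plus strand, 5′ to 3′, with matches in capitals to the GC box, the cyclic AMP response element and the TATA box).
Errfi1: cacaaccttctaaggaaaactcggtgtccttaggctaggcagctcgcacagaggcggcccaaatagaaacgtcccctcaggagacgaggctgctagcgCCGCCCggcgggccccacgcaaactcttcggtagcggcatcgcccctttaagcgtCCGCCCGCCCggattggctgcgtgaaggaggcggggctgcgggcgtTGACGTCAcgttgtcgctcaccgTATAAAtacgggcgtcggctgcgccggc
The window has a GC content of 64.8% and holds 3 matches to GGGCGG on the opposite strand, of which 2 overlap, 1 to TGACGTCA and 1 to TATAAA. Neither the AP-1 site nor the direct repeat nor the glucocorticoid response element was matched in it. The window before the other Errfi1 start, with a GC content of 38%, held no match to any of these motifs. A match describes the letters only.

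Probe set 1416129_at of Errfi1 had a lowest value of 12.34, a median of 13.05 and a highest of 13.41 in wild-type controls of the dosing days, and 11.57, 12.61 and 13.20 in treated livers. Knockout controls had 12.87, 13.19 and 13.40, and treated knockout livers 12.48, 12.86 and 13.33. Humanized controls had 12.49, 13.20 and 13.47, and treated humanized livers 11.87, 12.77 and 13.26. The arms overlapped in each genotype, and treated livers reached lower than any control. The dosing-day mean was 12.60 against 13.03 in wild-type mice, a difference of −0.43 ± 0.0785 (limma adjusted p = 5.45e-06), or 25.7% lower. In the knockout it was 12.91 against 13.18, a difference of −0.28 ± 0.0791 (limma adjusted p = 0.00744), or 17.5% lower. In humanized mice it was 12.72 against 13.11, a difference of −0.39 ± 0.0776 (limma adjusted p = 2.37e-05), or 23.7% lower. No call was lost when any 1 animal was left out.

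The other Errfi1 probe set, 1419816_s_at, gave the same direction. It fell by 0.47 ± 0.122, 0.46 ± 0.123 and 0.65 ± 0.12 on the log2 scale in wild-type, knockout and humanized mice (limma adjusted p = 0.00163, 0.00445 and 5.94e-06), or by 27.7%, 27% and 36.1%. Without day 14 the wild-type fall was 0.25 and did not pass (limma adjusted p = 0.191). The difference between genotypes in the effect on 1416129_at was 0.15 ± 0.111 for knockout minus wild type (95% interval −0.07 to 0.37; limma adjusted p = 0.456). For humanized minus wild type it was 0.04 (−0.18 to 0.26) and for humanized minus knockout −0.11 (−0.33 to 0.11). Within groups the 2 probe sets deviated together (r = 0.93, 166 samples). Errfi1 1416129_at correlated at −0.23 with Egfr 1435888_at and at 0.47 with Egfr 1432647_at.

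**Figure D4:**
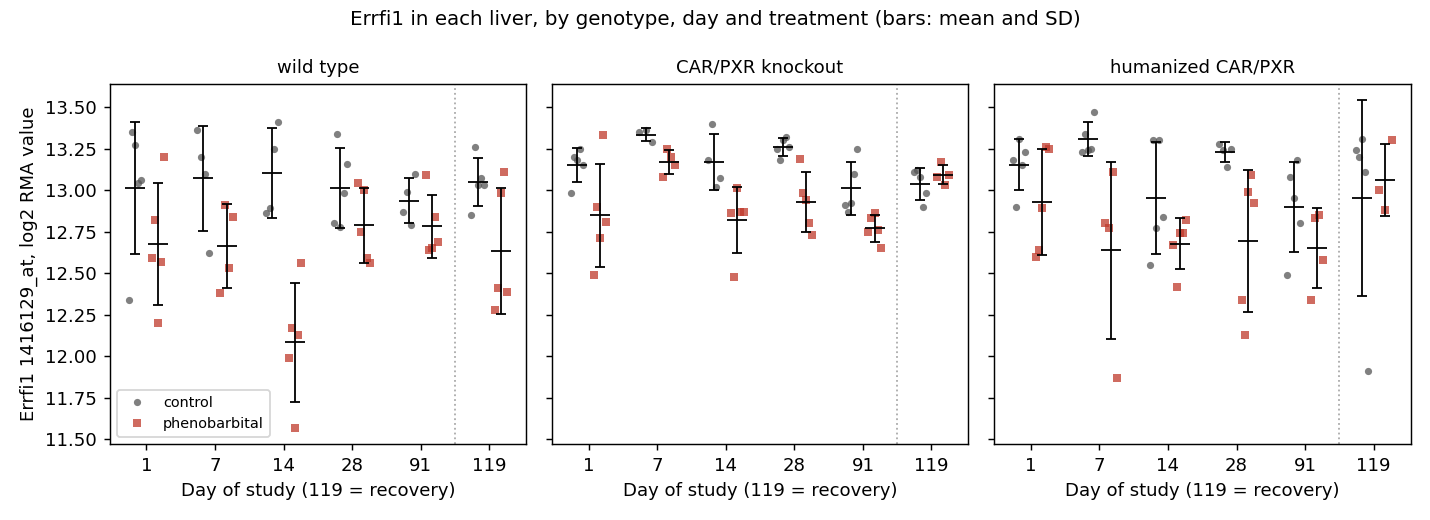
Log2 value of Errfi1 probe set 1416129_at in each liver, by day and treatment in the 3 genotypes, with the mean and SD of each group in black. Treated livers lie below every control on wild-type day 14, knockout days 7, 14 and 91, and humanized days 7 and 28. The share of all probe sets whose arms part like this was not counted.

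The largest Errfi1 differences of a day were those of wild-type day 14 and humanized day 7. On wild-type day 14 the controls of 1416129_at had 12.86, 12.89, 13.25 and 13.41, and the treated livers 11.57, 11.99, 12.13, 12.17 and 12.56. On the same day 1419816_s_at had 10.70, 10.72, 11.46 and 11.72 in controls and 9.31, 9.58, 9.87, 9.89 and 10.43 in treated livers. No treated liver reached the lowest control on either probe set. The difference was −1.02 ± 0.178 for 1416129_at (limma adjusted p = 1.23e-05) and −1.33 ± 0.275 for 1419816_s_at (0.000422). On humanized day 7 the controls of 1416129_at had 13.23, 13.24, 13.25, 13.34 and 13.47, and the treated livers 11.87, 12.77, 12.80 and 13.11. The difference was −0.67 ± 0.178 (limma adjusted p = 0.0139), and −1.09 ± 0.275 for 1419816_s_at (0.00845). Animal 6010 had the value of 11.87, and without it the differences were −0.41 and −0.78 and no longer passed (limma adjusted p = 0.296 and 0.162).

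On other days the Errfi1 arms were apart in places without passing the test. On knockout day 7 the controls had 13.29, 13.35 and 13.36, and the treated livers 13.08, 13.15, 13.20 and 13.25. On knockout day 14 the controls had 13.02, 13.07, 13.18 and 13.40, and the treated livers 12.48, 12.86, 12.87, 12.87 and 13.01. On knockout day 91 the controls had 12.87, 12.91, 12.92, 13.10 and 13.25, and the treated livers 12.65, 12.75, 12.76, 12.83 and 12.86. Each treated liver lay below each control on these days, and the share of all probe sets whose arms part like this was not counted. On humanized day 28 the controls had 13.14, 13.24, 13.25 and 13.28, and the treated livers 12.13, 12.34, 12.92, 12.99 and 13.09, a difference of −0.53 with a limma adjusted p of 0.0522. After recovery, on wild-type day 119, the controls had 12.85, 13.03, 13.03, 13.07 and 13.26, and the treated livers 12.28, 12.39, 12.41, 12.98 and 13.11. That difference of −0.41 did not pass (limma adjusted p = 0.999).

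Lrig1 (chr6:94604529-94700298, minus strand), the membrane inhibitor, fell slightly in wild-type and humanized mice. Probe set 1434210_s_at had a lowest value of 7.96, a median of 8.26 and a highest of 8.58 in wild-type controls of the dosing days and 7.87, 8.13 and 8.30 in treated livers. Knockout controls had 7.96, 8.22 and 8.52, and treated knockout livers 8.01, 8.20 and 8.43. Humanized controls had 8.10, 8.32 and 8.75, and treated humanized livers 7.93, 8.27 and 8.53. The arms overlapped in each genotype. The difference was −0.17 ± 0.0392 in wild-type mice (limma adjusted p = 0.000376), −0.01 in the knockout (0.932) and −0.13 ± 0.0387 in humanized mice (0.00671). Probe set 1449893_a_at differed by −0.20 ± 0.0541, −0.06 and −0.14 ± 0.0535 (limma adjusted p = 0.00238, 0.446 and 0.0342), the last of which was lost without any 1 of 11 animals. The weak probe set 1419928_at went the other way in wild-type mice, by 0.13 ± 0.0452 (limma adjusted p = 0.0227), and by 0.00 and 0.07 in the others (0.978 and 0.242).

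The effect on Lrig1 1434210_s_at differed between knockout and wild type. The knockout effect minus the wild-type effect was 0.16 ± 0.0556 (limma adjusted p = 0.043), and that on Egfr 1454313_at 0.18 ± 0.0559 (0.0181). These 2 of the 20 member probe sets were called in that comparison, beside 10.7% of all. The Lrig1 call was lost without any 1 of 29 animals (limma adjusted p 0.0518 to 0.0814) and without day 1, 7, 14 or 91, and the Egfr call without day 28 (0.18, limma adjusted p = 0.0809) or 91 (0.13, 0.223). Humanized minus wild type gave 0 calls, beside 1.97% of all, with 1 at an unadjusted limma p under 0.05, namely Met 1422990_at at −0.22. Humanized minus knockout also gave 0, beside 7.65% of all, with 3 at an unadjusted limma p under 0.05.

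**Figure D5:**
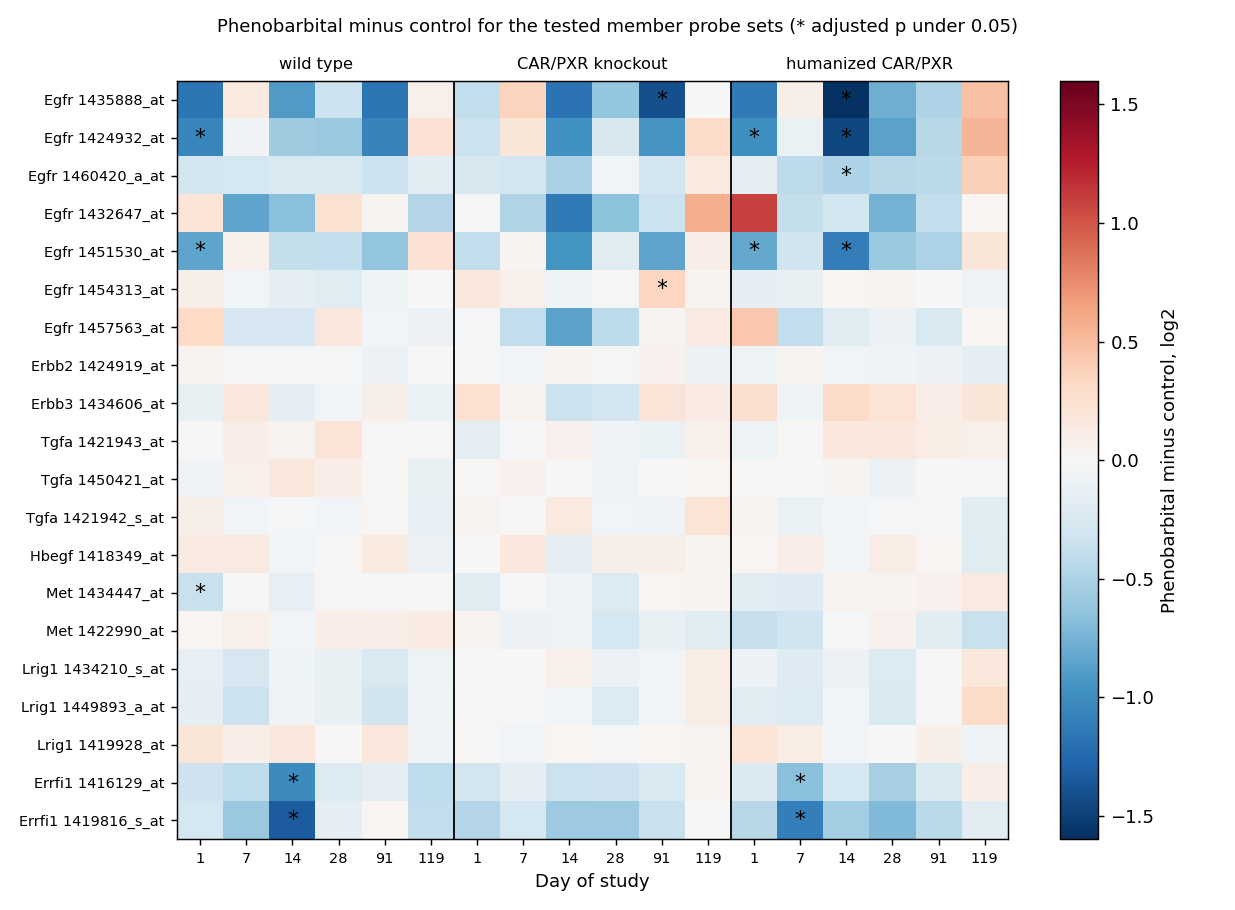
Phenobarbital minus control (log2, colour) for the 20 tested probe sets on each day in the 3 genotypes, with a star where the limma adjusted p is under 0.05. Calls lie in Egfr, Errfi1 and Met rows, and the day 119 columns hold none.

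Counted by day, few members passed. In wild-type mice 3 were called on day 1 (9.51% of all probe sets were), 0 on day 7 (1.88%), 2 on day 14 (5.81%), 0 on day 28 (3.87%) and 0 on day 91 (1.62%). In the knockout 0 were called on day 1 (6.59%), day 7 (0.00776%), day 14 (0.392%) and day 28 (3.81%), and 2 on day 91 (2.07%), of which Egfr 1454313_at was higher by 0.34 ± 0.084 (limma adjusted p = 0.0159). Humanized mice had 2 on day 1 (9.99%), 2 on day 7 (3.79%), 4 on day 14 (9.38%), and 0 on days 28 (6.00%) and 91 (1.46%). At an unadjusted limma p under 0.05 the days with 0 calls had 4, 2 and 6 members in wild-type mice, 2, 0, 7 and 3 in the knockout, and 7 and 1 in humanized mice. The knockout rise of Egfr 1454313_at was lost without animal 3021 (0.26, limma adjusted p = 0.111) or 4023 (0.32, 0.0645).

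After recovery, on day 119, no member was called in any genotype, beside 0.0194%, 0.116% and 0.132% of all probe sets in wild-type, knockout and humanized mice. At an unadjusted limma p under 0.05 there were 1, 0 and 3. Egfr 1435888_at differed by 0.08, −0.01 and 0.47 on that day, when its control means lay below those of day 1 in each genotype. Nor did the effect of day 91 differ from that of day 1 for any member, beside 0.275%, 0.458% and 1.21% of all, with 1, 0 and 1 at an unadjusted limma p under 0.05.

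Among control livers over the 6 days, a few members were called between genotypes, at no greater share than all probe sets. Of the 20 probe sets, 3 were called between knockout and wild type (20.5% of all were), 2 between humanized and wild type (28.1%) and 3 between humanized and knockout (17.7%). Met 1422990_at was higher in knockout than in wild-type controls, at 5.69 against 5.45 (difference 0.23 ± 0.0637, limma adjusted p = 0.00394), and lower in humanized than in knockout controls by 0.27 ± 0.0625 (0.000912). Met 1434447_at was lower in humanized controls than in wild-type controls, at −0.10 ± 0.034 (limma adjusted p = 0.0208), and than in knockout controls, at −0.13 ± 0.0342 (0.00532). Errfi1 1419816_s_at was higher in knockout than in wild-type controls by 0.36 ± 0.113 (limma adjusted p = 0.0142). Egfr 1460420_a_at was lower in humanized than in wild-type controls, at −0.22 ± 0.0662 (limma adjusted p = 0.00781), and Egfr 1454313_at lower in knockout controls, at −0.11 ± 0.0366 (0.0173). Lrig1 1434210_s_at was higher in humanized than in knockout controls by 0.13 ± 0.0357 (limma adjusted p = 0.00767). Egfr 1435888_at was not called, at −0.20, −0.14 and 0.06 in the 3 comparisons. Markers of other cells moved in the same comparisons. All 8 tested pancreas acinar markers were lower in humanized than in wild-type controls (median −1.08). In dosing-day controls alone, without day 119, the mean of these markers had medians of 5.70 and 5.77 in humanized and wild-type mice. The highest livers had 7.13 and 10.64. Of 8 Kupffer cell markers, Clec4f, Vsig4 and Cd68 were higher in knockout controls than in either other genotype. Their part in the member differences was not tested, and the comparisons share control samples.

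Over the 36 group means, the genes most like Egfr 1435888_at by Pearson's r were Scara5 (0.86), Fam114a2 (0.765) and Mfn1 (0.765). Those most like Met 1434447_at were Cpn2 (0.814), Stat5b (0.792) and Ankrd28 (0.792). For Lrig1 1434210_s_at they were Akap13 (0.745), Tle4 (0.705) and Asxl2 (0.684). For Errfi1 1416129_at they were Cebpd (0.799), Hand2 (0.796) and Klf9 (0.77). The group means share arrays and a normalisation, so these values are a description.

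Other genes of the pathway were called in both directions, at shares near those of all probe sets. Of 90 tested genes of 7 lists, 11 were higher and 19 lower with phenobarbital in wild-type mice, 6 and 12 in the knockout, and 10 and 20 in humanized mice, beside the 27.0%, 18.0% and 30.3% of all probe sets called. Among ligands, Hgf, which encodes the ligand of MET, fell by 0.28 in wild-type mice (limma adjusted p = 4.47e-06), and the knockout effect on it was higher by 0.30 (0.00233). Of 9 tested markers of stellate cells, the liver cells that make Hgf, Lrat, Reln and Dcn were lower in wild-type and in humanized mice. Of all probe sets, 16.6% and 17.7% were lower there. In the knockout 0 of the 9 were called. Hgf itself was not called in humanized mice (−0.09, limma adjusted p = 0.183). The mean level of the 9 markers ran from 7.64 to 8.41 in wild-type controls and from 7.60 to 8.20 in treated wild-type livers, and its part in the Hgf result was not tested. Hgfac, the protease that activates the ligand, fell by 0.15 in wild-type mice and by 0.23 in humanized ones. Hpn, another such protease, fell by 0.13 and 0.11. Btc, which encodes betacellulin, rose by 0.19 in humanized mice.

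Downstream of the receptors, adaptors and turnover genes had 7 lower and 0 higher of 21 in wild-type mice, 2 and 2 in the knockout, and 5 lower and 1 higher in humanized mice, beside 27.0%, 18.0% and 30.3% of all probe sets called in either direction. They included the adaptor Gab1 (−0.18 in wild-type mice, −0.12 in humanized ones) and the phosphatase Ptpn11, which fell by 0.14, 0.13 and 0.08 in wild-type, knockout and humanized mice. Feedback inhibitors (17) had 2 higher and 3 lower in wild-type mice, 1 and 2 in the knockout, and 2 and 4 in humanized mice. The ERK phosphatase Dusp6 rose by 0.40 and 0.37 in wild-type and humanized mice. Dusp1 fell by 0.33, 0.32 and 0.36 in wild-type, knockout and humanized mice, and Rasa2 by 0.19, 0.27 and 0.25. Response genes (19) had 4 higher and 1 lower, 2 and 2, and 1 and 4 in the same order of genotypes. Both lists lay near the shares of all probe sets called. The growth regulator Myc rose by 0.61 in wild-type mice (limma adjusted p = 0.0355) and fell by 0.85 in the knockout (0.00467). The difference of these effects passed its own test at −1.45 (limma adjusted p = 0.000597). Egr1, an immediate early gene, fell by 0.83 in humanized mice, and Ccnd1, which encodes cyclin D1, rose by 0.38 in the knockout. PI3K and AKT genes (13) had 2 higher and 5 lower, 0 and 3, and 1 and 3, beside the same shares of all probe sets. The subunit Pik3r1 fell by 0.29 and 0.31 in wild-type and humanized mice, and Pik3cb rose by 0.29 in wild-type mice and fell by 0.17 in the knockout. The 8 tested genes from RAS to ERK had 1 higher and 0 lower, 0 and 3, and 2 and 2. Of them Map2k1, which encodes the ERK kinase MEK1, rose by 0.14 and 0.13 in wild-type and humanized mice and fell by 0.06 in the knockout.

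Within groups, livers with high Egfr 1435888_at tended to be low in several response genes. The correlation of deviations over 166 samples was −0.60 with Phlda1, −0.54 with Myc and −0.54 with Socs3, and 0.50 with the endocytosis adaptor Eps15. For Errfi1 1416129_at it was 0.53 with Phlda1, 0.40 with Myc and 0.38 with Socs3. These genes were picked for their correlations among 90, and no test was made.

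Markers of other cells were read beside the members. Of 8 hepatocyte markers, 3 were lower with phenobarbital in wild-type mice (Alb, Apoa1 and Fgb), 5 in humanized mice, and 1 was lower and 1 higher in the knockout. Of all probe sets, 16.6% and 17.7% were lower in wild-type and humanized mice and 18.0% called in the knockout. The mean of 8 pancreas acinar markers had medians of 5.62 to 5.79 over the arms but reached far higher in single livers. The highest was 10.64 in wild-type, 10.42 in knockout and 7.13 in humanized controls, and 9.69, 9.29 and 12.64 in treated livers in that order, and 0 of the 8 were called in any dosing-day mean. Their part in the results on Egfr, Errfi1 and Lrig1 was not tested.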

How the data were processed

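Transcripts were measured in 167 mouse livers on Affymetrix arrays. The authors deposited log2 expression values made with RMA, per the submitters' processing notes, with no version stated. RMA corrects background, normalizes between arrays and summarises each probe set, and it compresses differences of weak and of very bright probe sets. Values ran from 2.11 to 15.07, with array medians of 5.14 to 5.23. The number of arrays limits the precision. Samples were grouped by genotype, treatment and day from the labels, with each array a separate animal. The protocol text also lists lower doses and another starting age, and no sample label gives a dose. No scan date or other batch was used here.

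Animals 6026 and 6030 (treated humanized, day 119) were nearly identical (SD of the log2 difference 0.0634) and were averaged as 1 sample. Animals 4019 and 4024, closer still, carry labels of different days and were kept as labelled.

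Symbols came from the platform annotation: 34945 probe sets had 1 symbol, 932 several and 9160 none, and probe sets with several symbols were left out of the genes named. Gene positions and the 250 bases before a start came from RefSeq, GRCm38.p6. Promoter windows were matched for 8 member genes. Tests covered probe sets that exceeded the array median on 3 or more arrays, that is 25780 of 45037. Testing used limma (version 3.58.1, under R 4.3.3; two-sided eBayes after lmFit) on 36 group means with 130 residual degrees of freedom, and adjusted by Benjamini-Hochberg within each contrast. A dosing-day mean weights its 5 days equally. Both scripts for tests were run on simulated data first.

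The member genes, pathway lists and marker lists were chosen with earlier results of these data known. All probe sets of the members are accounted for, the one with the highest mean stands for its gene, up to 3 called genes per pathway list and dosing-day mean may be named (the largest by size), and 3 genes are named by likeness to each called member. Myc, Socs3, Phlda1 and Eps15 in the correlations and the Hgf and Myc differences between genotypes were chosen after their values were seen. Alternatives tried were no filter, quantile normalization, only the compared groups, 1 probe set per gene, animals 6026 and 6030 as 2 samples, animals 4019 and 4024 left out, a trended robust prior, another reference probe set, each animal left out and, chosen after seeing the data, each dosing day left out.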

Additional observations from a re-analysis of the deposited data

Results flagged for a closer look

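Dixon's test at the 95% level was made on 136 combinations of a probe set and a group of 4 or 5 animals, and in 6 of them a liver stood apart from the rest of its group, where chance gives about 1 in 20. Egfr 1435888_at was 10.52 in humanized control animal 5004 on day 1, against 11.99 to 12.30 in the other animals. It was 9.03 in treated humanized animal 6022 on day 91, against 11.02 to 11.25. Errfi1 1416129_at was 11.91 in humanized control animal 5030 on day 119, against 13.11 to 13.31. Lrig1 1434210_s_at was 8.52 in knockout control animal 3016 on day 28, against 8.13 to 8.23. It was 8.05 in treated knockout animal 4030 on day 119, against 8.35 to 8.39, and 7.98 in treated wild-type animal 2030 on day 119, against 8.17 to 8.23. Without animal 5004 the humanized dosing-day difference of Egfr 1435888_at was −0.85 and without animal 6022 −0.68, both still called (limma adjusted p = 0.000218 and 0.00329).

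In the dosing-day mean the test of the knockout minus wild-type effect called Egfr 1454313_at, at 0.18, and Lrig1 1434210_s_at, at 0.16. These were 2 of 20 member probe sets (10%), near the 10.7% of all probe sets called. Neither call held without day 91, and the Lrig1 call was also lost when single animals were left out.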

How the results depend on the processing

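No result among those recomputed changed its direction where it was called. With 1 probe set per gene, which leaves fewer member probe sets to count, the dosing-day mean had 4, 2 and 3 calls in wild-type, knockout and humanized mice, the knockout minus wild-type effect 1, the controls 0 for knockout minus wild type and 1 for humanized minus wild type, and members called on at least 1 dosing day numbered 3, 1 and 2. The knockout dosing-day mean had 4 calls without day 14 or day 91. The knockout minus wild-type effect had 1 call with no filter, 1 without day 1, 7, 14 or 28, 0 without day 91, and 1 to 2 with single animals left out. The humanized minus knockout effect had 1 call without day 14. Members called on at least 1 dosing day numbered 5, 2 and 6. With single animals left out they ranged from 3 to 6 in wild-type mice and from 0 to 2 in the knockout. In the knockout they were 1 with no filter, with quantile normalization or without animals 4019 and 4024, and 0 with only the compared groups. In humanized mice they were 2 with only the compared groups. The cause of these shifts was not tested.

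With 1424932_at as the reference, the gap of 1460420_a_at was 0.39 in wild-type mice (permutation adjusted p = 0.0401), and that of 1457563_at 0.65 in wild-type (0.043) and 0.67 in humanized mice (0.0401). With single animals left out, the gaps from 1435888_at ranged in wild-type mice from 0.35 to 0.47 for 1460420_a_at, 0.22 to 0.28 for 1451530_at and 0.59 to 0.78 for 1457563_at. In the knockout they ranged from 0.15 to 0.21 for 1424932_at, 0.26 to 0.46 for 1460420_a_at and 0.13 to 0.22 for 1451530_at, and in humanized mice from 0.59 to 0.77 for 1457563_at.

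Quantile normalization shifted no contrast's median by more than 0.021 but moved the share of lower among all calls, for example from 61.6% to 43.5% on wild-type day 14 and from 75.1% to 57% on knockout day 91. No paired analysis was possible because each animal has its own number and no number is shared between groups. Weak probe sets such as those of Egf and Erbb2 and Egfr 1454313_at and 1457563_at lie near or below the array median, which limits what can be read from them.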
